A study of Mus musculus with 12 samples.

Results

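Dusp1, Dusp2, Dusp4, Dusp5, Dusp6, Dusp10, Spry1 and Spry2 are feedback inhibitors of MAP kinase signalling, and their RNA was followed in immature thymocytes with and without the zinc finger genes Zfp148 and Zfp281. The genes were taken by symbol, 8 of the 53656 gene rows of the count tables, and 7 of the 8 passed the filter on low counts. Spry2 did not pass and entered no test. RNA was sequenced from 12 libraries in 4 groups of 3, and the study asked how the Zfp148 and Zfp281 proteins act together in CD4 T cell development.

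All mice carried loxP sites in both copies of both genes (Zfp148 fl/fl; Zfp281 fl/fl). Double knockout (dKO) mice also carried Cd4-Cre, a Cre transgene driven by the Cd4 promoter, which acts in T cells from the CD4 CD8 double-positive stage. Controls lacked Cre, so an effect of Cre itself cannot be told apart from the loss of the genes. ImCD4 cells were CD4+ CD8- thymocytes with low CD44, without surface H2-Kb and with CD69, a marker of recent receptor signalling. ImCD8 cells were CD8+ CD4- thymocytes with low CD44, TCR beta and CD69. Strain, sex and age were not given in the labels used here, nor whether each of the 3 libraries in a group had its own animal. The p-values therefore reflect library-to-library spread, some of which may be technical.

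For the 6 ImCD8 libraries the genotype label is opposite to the title: those titled control are marked as Cre positive and those titled dKO as Cre negative. Groups follow the titles here, because the targeted genes do. Zfp281 stood at 441 to 562 CPM (gene counts on the usual CPM scale, divided by the TMM-scaled library total) in control ImCD4 and 16.2 to 21.4 CPM in dKO ImCD4, and at 112 to 128 CPM in ImCD8 titled control and 10.2 to 14.9 CPM in ImCD8 titled dKO. Zfp148 stood at 177 to 182 against 63.0 to 68.9 CPM in ImCD4, and at 162 to 171 against 45.6 to 62.8 CPM in ImCD8. Every direction given for dKO ImCD8 rests on the titles.

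MAP kinase cascades carry signals from the T cell receptor through Ras, Raf, MEK and ERK, and through parallel JNK and p38 branches. Dual-specificity phosphatases (DUSPs, or MAP kinase phosphatases) remove phosphates from the activating threonine and tyrosine of the kinases, and many of their genes are themselves switched on by the same signal, which closes a negative feedback loop. Sprouty proteins restrain the route from receptors to Ras and ERK and are likewise induced by it. In the thymus the strength and duration of ERK signalling take part in positive selection and in the choice between the CD4 and CD8 lineages.

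The members differ in where they act and on which kinase. DUSP1, DUSP2, DUSP4 and DUSP5 are nuclear enzymes, of which DUSP5 is selective for ERK and DUSP2, also known as PAC1, was first known from activated T cells. DUSP6 is the cytoplasmic phosphatase selective for ERK. DUSP10 prefers JNK and p38 over ERK. SPRY1 and SPRY2 act upstream, at the level of Ras activation.

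By GENCODE M21 (mm10) the members lie on separate chromosomes. Dusp1 is at chr17:26505590-26562128, Dusp2 at chr2:127336159-127338376, Dusp4 at chr8:34807297-34819894 and Dusp5 at chr19:53529109-53542431. Dusp6 is at chr10:99263231-99267489, Dusp10 at chr1:184013302-184075636, Spry1 at chr3:37639947-37644598 and Spry2 at chr14:105891947-105896819.

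Promoter sequence is shown for the 4 members with a motif match. RefSeq starts on GRCm38.p6 matched 7 of the 8 members, all but Dusp4, and the 250 bases before each start were searched on both strands. The motifs were GGGAGGG, a G-rich core (ZFP148 and ZFP281 are known to bind G-rich DNA), TGACGTCA, the cAMP response element, and the CArG box, the site of serum response factor. Capitals mark the matches. The runs below leave out bases that GENCODE places in an exon of the same gene, which shortens Dusp1 and Dusp5. The Dusp1 and Dusp10 windows lie inside the GENCODE spans given above, so they are not at the outer start of the gene model.
Dusp2 promoter, chr2:127335909-127336158, plus strand: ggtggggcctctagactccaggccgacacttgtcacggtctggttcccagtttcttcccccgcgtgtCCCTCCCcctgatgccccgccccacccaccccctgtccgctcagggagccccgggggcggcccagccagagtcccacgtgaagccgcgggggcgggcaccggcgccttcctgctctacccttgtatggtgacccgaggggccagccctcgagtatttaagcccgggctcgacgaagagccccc
Dusp10 promoter, chr1:184034131-184034380, plus strand: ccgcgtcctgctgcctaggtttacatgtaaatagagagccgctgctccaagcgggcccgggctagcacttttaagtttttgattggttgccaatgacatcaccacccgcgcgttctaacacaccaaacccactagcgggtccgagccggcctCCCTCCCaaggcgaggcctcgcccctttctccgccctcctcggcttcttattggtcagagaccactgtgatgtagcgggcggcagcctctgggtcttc
Dusp1 promoter, chr17:26508520-26508722, minus strand: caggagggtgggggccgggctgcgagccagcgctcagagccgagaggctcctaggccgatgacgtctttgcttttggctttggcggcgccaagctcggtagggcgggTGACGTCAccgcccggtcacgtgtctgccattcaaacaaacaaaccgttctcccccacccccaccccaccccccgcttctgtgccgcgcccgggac
Dusp5 promoter, chr19:53528895-53529108, plus strand: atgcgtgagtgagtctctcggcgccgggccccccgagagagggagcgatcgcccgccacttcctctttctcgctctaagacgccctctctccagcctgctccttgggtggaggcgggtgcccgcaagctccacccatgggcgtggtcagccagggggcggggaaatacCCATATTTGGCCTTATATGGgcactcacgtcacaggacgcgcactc

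Dusp2 and Dusp10 each held 1 GGGAGGG match, read on the minus strand and so shown as CCCTCCC, starting 183 and 98 bases before the start site. Such a match occurred in 19.7% of all 32851 windows of that length, and in 2 of the 7 member windows. Dusp1 held 1 TGACGTCA, starting 143 bases before the start, against 1.55% of all windows. Dusp5 held 2 CArG boxes, side by side from 82 and 72 bases before the start, against 1.47% of windows. Dusp6, Spry1 and Spry2 matched none of the 3 motifs in this window. The member windows ran from 56.4% to 70.4% G and C, against a median of 52.4% over all windows. A match is a description of the sequence, not of binding.

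Gene counts per library ran from 7315833 to 10943143, with no overlap between control ImCD4 (8276742 to 9173424) and dKO ImCD4 (9319732 to 10943143). The mitochondrial share of counts was 1.07% to 1.31% in control ImCD4 and 0.633% to 0.961% in dKO ImCD4, and 1.12% to 1.70% over the ImCD8 libraries. CD4 lineage markers (Cd4, Zbtb7b, Cd40lg) summed to 1594 to 1911 CPM in ImCD4 and to 4.68 to 19.9 CPM in ImCD8, and CD8 lineage markers (Cd8a, Cd8b1, Itgae, Runx3) to 121 to 294 and 4514 to 4792 CPM. The libraries numbered 3 were the lowest of their groups on the third principal component (5.31% of the variance). Results of the members are also given without these 4 where that changes a call. B cell markers summed to at most 3.51 CPM in any library.

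Some markers moved with genotype, without overlap between dKO and control libraries. Markers of double-positive thymocytes (Rag1, Rag2, Dntt and Ptcra, 4 of 4 detected) summed to 44.2 to 63.8 CPM in control ImCD4, 79.8 to 99.8 in dKO ImCD4, 36.0 to 59.3 in control ImCD8 and 91.4 to 126 in dKO ImCD8. Dntt alone made up most of each sum and carried the difference. Rag1, Rag2 and Ptcra each overlapped between dKO and control libraries in both lineages. Cd44, whose protein the gates required to be low, stood at 22.7 to 27.1 CPM in control and 52.7 to 72.2 in dKO ImCD4, and at 23.8 to 28.7 in control and 58.8 to 85.0 in dKO ImCD8. The thymic epithelium list (Epcam, Krt5, Krt8, Foxn1, Psmb11) summed to 4.34 to 5.42 CPM in control and 5.55 to 6.96 in dKO ImCD4, and to 8.96 to 10.4 in control and 12.3 to 22.1 in dKO ImCD8. Epcam made up most of that sum, with Krt5, Krt8, Foxn1 and Psmb11 at no more than 0.589 CPM each in any library, and Krt5 and Foxn1 at 0 in dKO ImCD4. The H2-Kb gene H2-K1 also differed in ImCD4, at 249 to 258 CPM in control and 282 to 317 in dKO, and the summed CD4 lineage markers differed in ImCD8, at 4.68 to 8.17 and 9.89 to 19.9 CPM. Sums also hid opposite moves of single markers. In ImCD4, Cd4 stood at 1089 to 1154 CPM in control and 1338 to 1417 in dKO. Zbtb7b stood there at 236.3 to 388 and 121.5 to 235.7 CPM. Of the T cell markers, Cd5 (662 to 747 and 378 to 466) and Cd3d (928 to 954 and 894 to 910) were lower in dKO ImCD4. Cd3e (729 to 951 and 962 to 1077) and Cd3g (702 to 823 and 894 to 989) were higher there, and Trac overlapped. The CD8 lineage marker Runx3 was also higher in dKO ImCD4, at 39.6 to 52.3 CPM in control and 52.5 to 64.4 in dKO. In ImCD8, Itgae stood at 811 to 821 CPM in control and 575 to 696 in dKO. The part of these markers in the dKO differences below was not tested, and in bulk RNA fewer cells of a type and less RNA per cell cannot be told apart. NK cell markers (Ncr1, Klrb1c, Klrd1) summed to at most 0.383 CPM in ImCD4 and up to 42.2 CPM in ImCD8, with Ncr1 at 0 in all 12 libraries.

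Per length of exon (CPM per kb, on GENCODE M21 gene models), Dusp2 was the most abundant member RNA in all 4 groups. Its mean over the 12 libraries was 286 CPM per kb, against 55.6 for Dusp6, 51.9 for Dusp5, 48.3 for Dusp10 and 18.2 for Dusp1. Dusp4 (4.15 CPM per kb), Spry1 (1.74) and Spry2 (0.158) were scarce. Spry2 gave 0 to 8 counts per library, so its group means of 0.110 to 0.575 CPM rest on a handful of counts and no order among them is read.

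The make-up of the 8 members' RNA by length is given as a description, with no test of the shares. Dusp2 made up 37.3% ± 2.36 (SD, n = 3) of the members' summed CPM per kb in control ImCD4, 60.5% ± 4.89 in dKO ImCD4, 71.3% ± 0.888 in control ImCD8 and 78.0% ± 2.90 in dKO ImCD8. The shares of Dusp1, Dusp5, Dusp6 and Dusp10 were each highest in control ImCD4, so this was not particular to Dusp5 and Dusp6, the genes of the ERK-selective phosphatases. Dusp5 held 19.4% ± 1.36 of the sum in control ImCD4 and 10.02% ± 0.799 in dKO ImCD4, then 9.03% ± 0.621 and 5.97% ± 1.19 in the ImCD8 groups, and Dusp6 held 17.9% ± 0.596, 14.3% ± 3.06, 8.39% ± 0.582 and 6.19% ± 0.623 in the same order. A share also moves with the levels of the other members. The Dusp6 level itself did not pass the test below with genotype in either lineage. The summed level was 461 ± 13.9 CPM per kb in control ImCD4, 578 ± 80.9 in dKO ImCD4, 363 ± 10.6 in control ImCD8 and 464 ± 38.4 in dKO ImCD8.

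**Figure D1:**
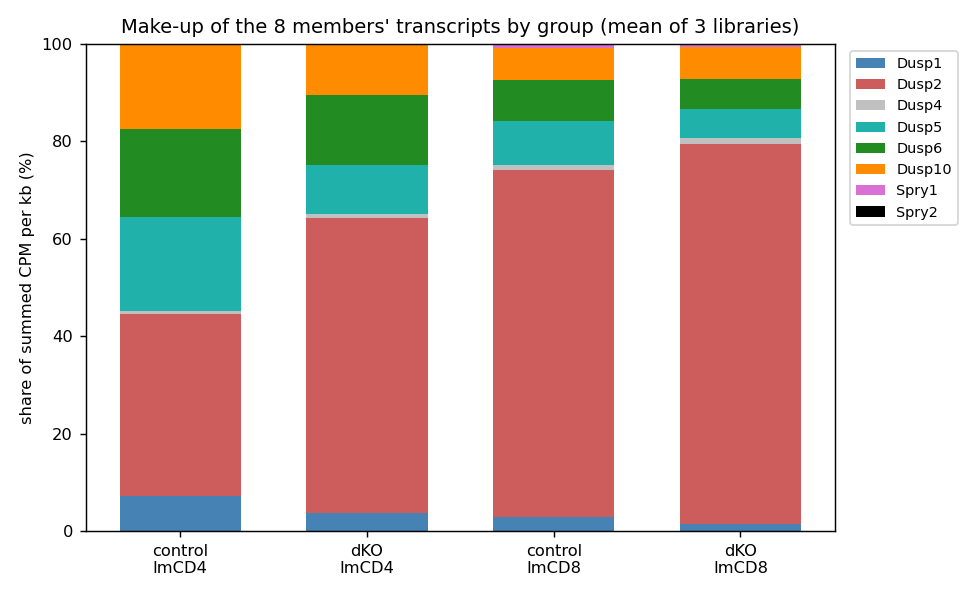
Share of each member in the members' summed CPM per kb of exon (y axis, percent), for the 4 groups (mean of 3 libraries). Dusp2 takes 37.3% of the sum in control ImCD4 and 78.0% in dKO ImCD8.

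**Figure D2:**
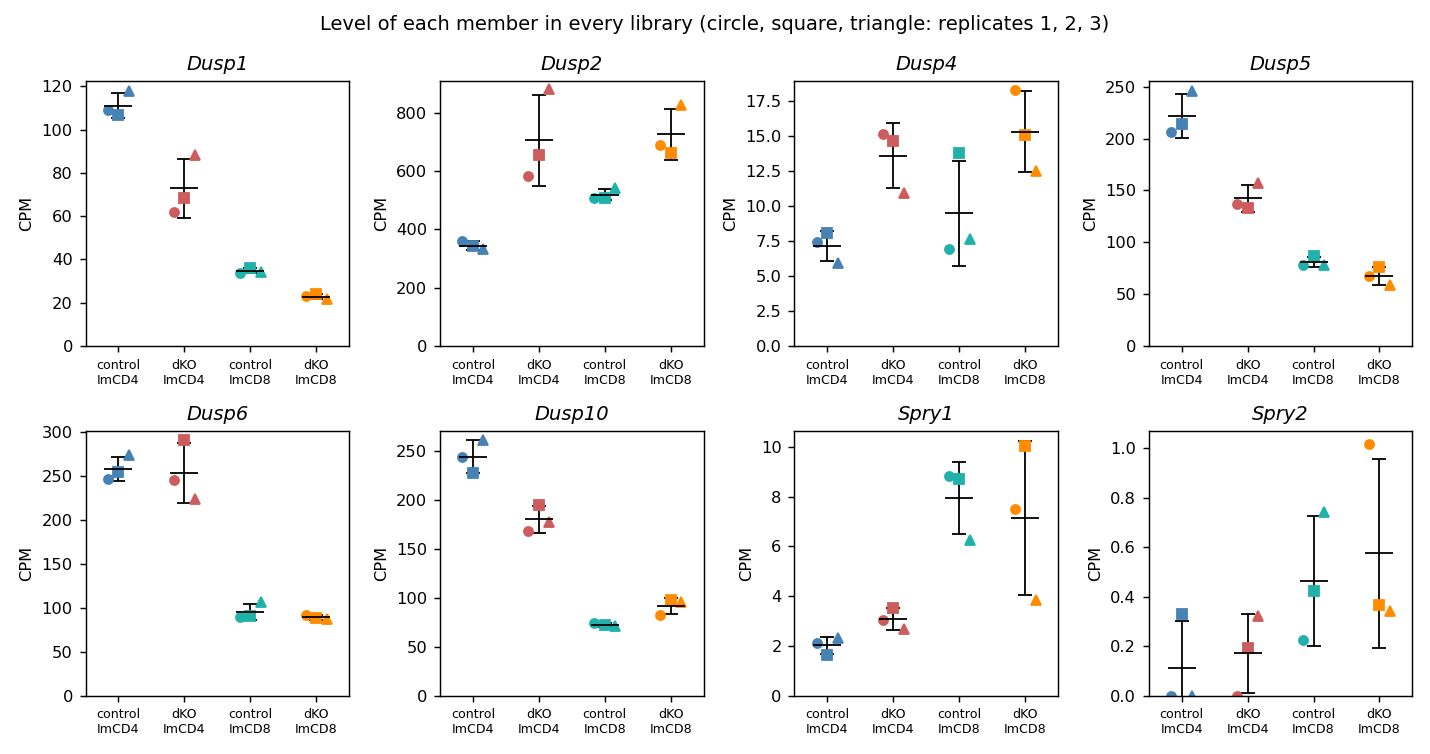
CPM (y axis, linear, from 0) of the 8 members in each of the 12 libraries (circle, square and triangle for replicates 1, 2 and 3) by group, with the group mean and SD as bars. Dusp1, Dusp5, Dusp6 and Dusp10 sit higher in ImCD4 than in ImCD8 in either genotype, and Dusp2 is lowest in control ImCD4.

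In ImCD4 cells the members moved in both directions with the loss of Zfp148 and Zfp281. Dusp2 and Dusp4 rose about 2.05-fold and 1.91-fold, Dusp1, Dusp5 and Dusp10 fell to 0.654, 0.641 and 0.739 of control, and Dusp6 and Spry1 did not pass the test. By edgeR's quasi-likelihood test, with p-values adjusted over all 13383 genes tested, 5 of the 7 tested members passed 0.05, 2 higher and 3 lower, where 13.4% of all genes passed (7.26% higher, 6.16% lower). The members' median log2 fold change was -0.03 and that of all genes 0.02, while the median size without sign was 0.61 against 0.19. Library values did not overlap between dKO and control for 6 of the 7, a state found for 33.8% of all genes.

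Dusp2 read 361, 342 and 331 CPM in the control ImCD4 libraries and 582, 653 and 881 CPM in the dKO. Every dKO library lay above every control, and dKO replicate 3 stood highest. The log2 fold change was 1.03 ± 0.13 (SE; adjusted p = 0.000108). Dusp4 read 7.42, 8.07 and 5.93 CPM in controls and 15.2, 14.6 and 10.9 CPM in dKO, again with no overlap, a log2 change of 0.93 ± 0.24 (adjusted p = 0.0183). Dusp4 rests on few counts, and its call was lost when control replicate 1 or 3 or dKO replicate 1 or 2 was left out, with adjusted p up to 0.0771 and log2 changes of 0.81 to 0.96.

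Dusp1, a rapidly induced gene whose product acts on p38, JNK and ERK, read 109, 107 and 118 CPM in controls and 62.1, 68.2 and 88.1 CPM in dKO ImCD4. The groups were separate, with dKO replicate 3 nearest to control, and the log2 change was -0.61 ± 0.10 (adjusted p = 0.000951). Dusp5, the nuclear ERK-selective phosphatase, read 206, 214 and 246 CPM in controls and 137, 133 and 157 CPM in dKO, a log2 change of -0.64 ± 0.10 (adjusted p = 0.000349). For Dusp1 and Dusp5 the counting may include reads of an overlapping gene on the other strand (Ergic1 and AC137853.2), because no source used here gives the strand setting.

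Dusp10, which shares the GGGAGGG match with Dusp2, read 243, 227 and 261 CPM in controls and 168, 195 and 177 CPM in dKO ImCD4. All 3 dKO libraries were below all 3 controls, and the log2 change was -0.44 ± 0.08 (adjusted p = 0.00178). Calls for Dusp1, Dusp2, Dusp5 and Dusp10 in ImCD4 held in all 21 alternative analyses, single libraries left out included.

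Dusp6, the cytoplasmic ERK phosphatase and a common readout of ERK activity, read 247, 254 and 274 CPM in controls and 246, 291 and 224 CPM in dKO ImCD4. The groups overlapped. The log2 change was -0.03 ± 0.09 (adjusted p = 0.892), with a 95% confidence interval from -0.22 to 0.17. Spry1 read 2.12, 1.66 and 2.33 CPM in controls and 3.03, 3.54 and 2.67 CPM in dKO. These few counts did not overlap between groups, yet the log2 difference of 0.60 ± 0.34 did not pass (adjusted p = 0.277). Antisense reads of Gm42922 could enter the Spry1 counts.

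In ImCD8 cells, by title, the same test gave 3 of 7 members, with Dusp2 and Dusp10 higher and Dusp1 lower, where 6.14% of all genes passed (2.62% higher, 3.53% lower). The members' median log2 difference was -0.10 against 0.01 over all genes, and the median size 0.34 against 0.15. Library values did not overlap for 4 members, against 21.8% of all genes. The count fell to 1, Dusp1 alone, when control ImCD8 replicate 1, control replicate 3 or dKO replicate 3 was left out.

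Dusp1 read 34.0, 36.2 and 34.1 CPM in control ImCD8 and 23.0, 23.8 and 21.6 CPM in dKO ImCD8. Both groups were tight and separate, with a log2 change of -0.60 ± 0.12 (adjusted p = 0.00522), and the call held in all 21 alternatives. Dusp2 read 507, 508 and 541 CPM in controls and 690.4, 662 and 826 CPM in dKO, a log2 change of 0.49 ± 0.13 (adjusted p = 0.0338). The direction of Dusp2 was the same throughout, but the call was lost without any 1 of the 3 control ImCD8 libraries, without dKO ImCD8 replicate 1 or 3 or without control ImCD4 replicate 2, with adjusted p up to 0.119.

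Dusp10 read 74.4, 72.0 and 70.8 CPM in control ImCD8 and 82.6, 97.3 and 95.6 CPM in dKO ImCD8. Every dKO library was above every control, the opposite of ImCD4, and the log2 change was 0.34 ± 0.08 (adjusted p = 0.0209). That call was lost without any 1 of the 3 controls, without dKO replicate 2 or 3, without the 4 libraries numbered 3, and when only the ImCD8 libraries were fitted, with adjusted p from 0.0532 to 0.0954.

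Dusp4 read 6.95, 13.8 and 7.65 CPM in control ImCD8 and 18.3, 15.1 and 12.5 CPM in dKO. Control replicate 2 lay inside the dKO range. The log2 difference of 0.71 ± 0.24 did not pass (adjusted p = 0.0960), and without control replicate 2 it was 1.06 with adjusted p = 0.00826. Dusp4 also passed with voom (0.0371), with no filter on low counts (0.00221) and with a term for the 4 libraries numbered 3 (0.0141).

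Dusp5 in ImCD8 read 78.2, 86.3 and 78.4 CPM in controls and 67.6, 76.6 and 59.2 CPM in dKO. The values did not overlap, but the log2 difference of -0.25 ± 0.10 did not pass (adjusted p = 0.179). Dusp6 read 89.3, 90.9 and 106 CPM against 92.5, 88.6 and 87.1 CPM, with overlap, a difference of -0.10 ± 0.10 and a 95% interval from -0.30 to 0.11 (adjusted p = 0.667). Spry1 read 8.85, 8.73 and 6.27 CPM in controls and 7.49, 10.03 and 3.87 CPM in dKO, an overlapping pair with a log2 difference of -0.14 ± 0.27 (adjusted p = 0.850).

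**Figure D3:**
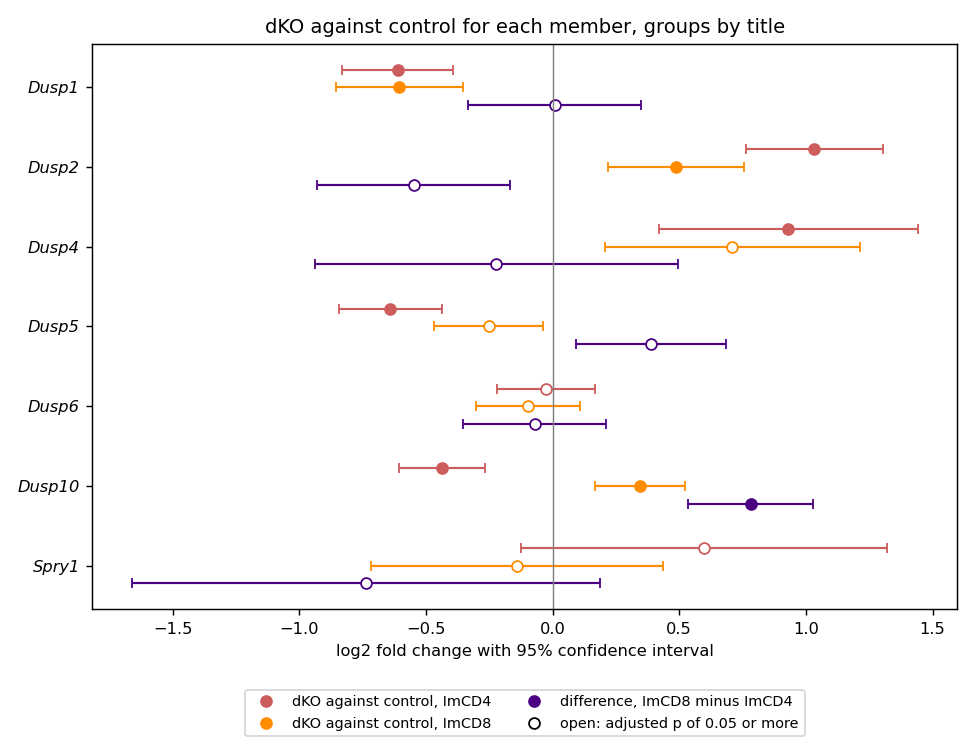
log2 fold change of dKO against control with its 95% confidence interval (x axis) for the 7 tested members in ImCD4 and ImCD8, and the difference of the dKO effects (ImCD8 minus ImCD4). Filled points passed an adjusted p of 0.05: Dusp10 lies at -0.44 in ImCD4 and 0.34 in ImCD8.

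The difference between the dKO effects was tested directly, as an interaction in the same fit. Dusp10 was the only one of the 7 tested members to pass, where 0.433% of all genes did. Its dKO effect was 0.78 ± 0.12 log2 units higher in ImCD8 than in ImCD4 (95% interval 0.54 to 1.03, adjusted p = 0.00449). The call held in all 20 alternatives, which gave differences of 0.67 to 0.85 and adjusted p up to 0.0235. In levels, the gap between ImCD4 and ImCD8 narrowed in the dKO from both sides, from 244 ± 16.8 against 72.4 ± 1.84 CPM in controls to 180.1 ± 13.7 against 91.8 ± 8.08 CPM.

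For the other members the interaction did not pass, and the intervals show what sizes remain possible. Dusp1 had a difference of 0.01 ± 0.16 and an interval from -0.33 to 0.35 (adjusted p = 0.996). Dusp2 had a difference of -0.55 ± 0.18, with an interval of -0.93 to -0.17 before adjustment (adjusted p = 0.292), and it passed in 1 alternative, with no filter on low counts (adjusted p = 0.000485). Dusp5 differed by 0.39 ± 0.14 (adjusted p = 0.330), Dusp4 by -0.22 ± 0.34 (0.877), Dusp6 by -0.07 ± 0.13 (0.902) and Spry1 by -0.74 ± 0.44 (0.606).

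Between the lineages, in controls, Dusp1, Dusp5, Dusp6 and Dusp10 were lower in ImCD8 than in ImCD4 and Dusp2 and Spry1 higher, so 6 of 7 passed, where 45.3% of all genes did (23.1% higher, 22.1% lower). The members' median log2 difference was -1.43 against -0.01 over all genes, and the median size 1.46 against 0.35. Library values did not overlap for 6 of 7 members and for 56.4% of all genes. The 2 populations were sorted by different gates, so lineage cannot be told apart from what the gates selected, in either genotype. Among the gate markers, Cd69 averaged 624 CPM in control ImCD4 and 204 in control ImCD8, and H2-K1 253 and 2759 CPM. In dKO, Cd69 averaged 619 and 212 CPM and H2-K1 294 and 3009 CPM.

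The library values are those given above. Dusp10 had 3.37-fold less RNA in control ImCD8 (log2 -1.75 ± 0.08, adjusted p = 1.55e-10) and Dusp1 3.20-fold less (-1.68 ± 0.11, 5.85e-09). Of the ERK-selective phosphatase genes, Dusp5 was lower by 2.75-fold (-1.46 ± 0.10, 9.35e-09) and Dusp6 by 2.70-fold (-1.43 ± 0.10, 6.79e-09). Dusp2 was 1.51-fold higher (0.59 ± 0.13, 0.00160). Spry1 was 3.87-fold higher (1.95 ± 0.32, 0.000112), from 15 to 109 counts per library over all groups, and Dusp4 did not pass (0.39 ± 0.25, 0.227).

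In dKO cells 5 of 7 passed between the lineages, 1 higher and 4 lower, where 43.7% of all genes did (22.1% higher, 21.6% lower). Library values did not overlap for 5 of 7 members and for 51.8% of all genes. Dusp1 (-1.67 ± 0.11, adjusted p = 1.03e-08), Dusp6 (-1.51 ± 0.10, 4.27e-09), Dusp5 (-1.07 ± 0.10, 3.57e-07) and Dusp10 (-0.97 ± 0.08, 1.12e-07) were lower in ImCD8. Spry1 was higher (1.22 ± 0.29, 0.00313). Dusp2, higher in control ImCD8, did not pass in the dKO, at 705 ± 156 CPM in ImCD4 and 726 ± 87.4 CPM in ImCD8 (log2 0.04 ± 0.12, interval -0.23 to 0.31, adjusted p = 0.820). The 2 lineage comparisons share no library, and for each member the change from control to dKO is the interaction given above.

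**Figure D4:**
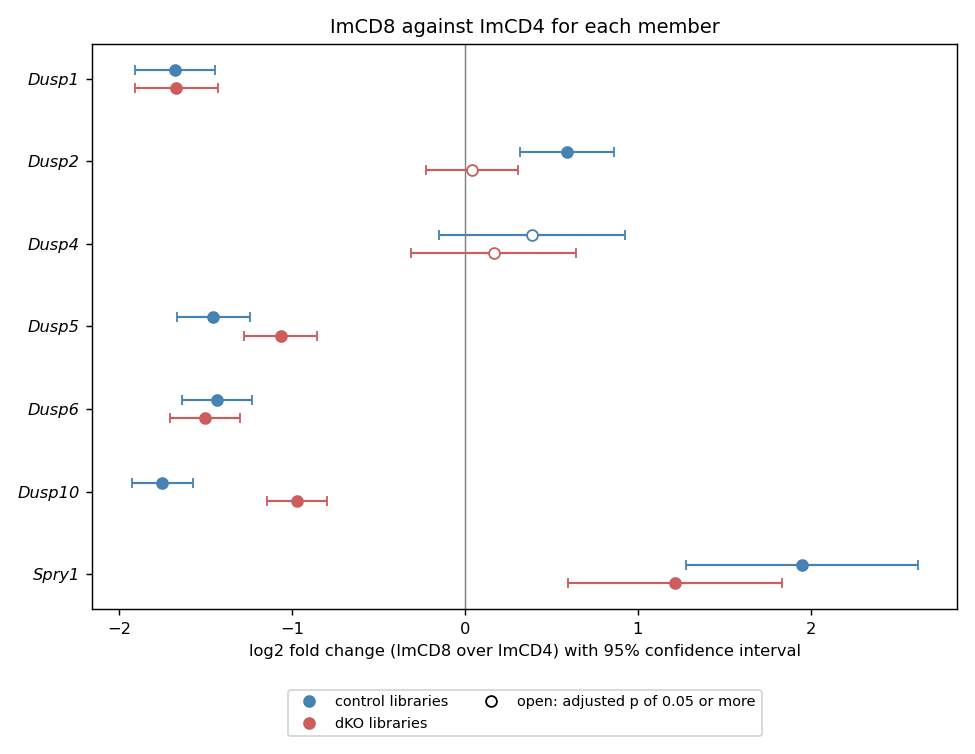
log2 fold change of ImCD8 against ImCD4 with its 95% confidence interval (x axis) for the 7 tested members, in controls and in dKO. Dusp10 moves from -1.75 in controls to -0.97 in dKO, and Dusp2 from 0.59 to 0.04.

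By order of group means, Dusp1, Dusp5 and Dusp6 went from control ImCD4 down to dKO ImCD8. Dusp1 stood at 111 ± 5.76, 72.8 ± 13.6, 34.8 ± 1.25 and 22.8 ± 1.12 CPM, and both genotype steps passed while the middle step, between dKO ImCD4 and control ImCD8, was not tested. Dusp5 stood at 222 ± 21.1, 142 ± 13.0, 81.0 ± 4.65 and 67.8 ± 8.70 CPM, and the step between the ImCD8 groups did not pass. Dusp6 stood at 258 ± 13.6, 254 ± 34.3, 95.5 ± 9.41 and 89.4 ± 2.77 CPM, and neither genotype step passed.

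Of the other genes tested with a mean of at least 5 CPM, those whose pattern lay nearest to a member were found by the root mean square gap of centred log2 CPM over the 12 libraries, for the 3 members whose group means spanned the widest range. Zcchc12 (gap 0.190 log2 units), Pik3r3 (0.223) and Lcmt1 (0.240) lay nearest to Dusp1, whose group means spanned 2.27 log2 units. Tnfrsf1b (0.262), Ect2 (0.267) and Xdh (0.280) lay nearest to Spry1, and Crem (0.154), Cytip (0.177) and Extl3 (0.178) to Dusp10. Crem, which encodes a cAMP-responsive transcription factor, averaged 55.2 CPM in control ImCD4, 51.3 in dKO ImCD4, 19.3 in control ImCD8 and 20.9 in dKO ImCD8.

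The rest of the pathway was read from 10 gene lists that hold none of the members and overlap in a few immediate early genes, 98 tested genes in all. In dKO ImCD4 21 of the 98 passed (10 higher, 11 lower; 21.4%), and in dKO ImCD8 10 (5 higher, 5 lower; 10.2%), beside the 13.4% and 6.14% of all genes. Calls held in every alternative for 10 of the 21 and 4 of the 10.

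Among the other MAP kinase phosphatases, Dusp7 and Dusp16 were tested. Dusp7, a cytoplasmic ERK phosphatase related to Dusp6, rose in both: from 72.6 ± 0.919 to 95.3 ± 1.69 CPM in ImCD4 (log2 0.39 ± 0.09, adjusted p = 0.0104) and from 85.2 ± 8.59 to 134 ± 18.4 CPM in ImCD8 (0.65 ± 0.09, 0.000304). Dusp16 passed in neither. Of 7 atypical dual-specificity phosphatases, Dusp22 fell in ImCD4 (-0.44 ± 0.12, 0.0217) and none passed in ImCD8. None of Spry4, Spred1 and Spred2 passed with genotype. Between the lineages Spred1 and Spred2, inhibitors related to Sprouty, were lower in ImCD8 in controls (-1.06 ± 0.12, 1.99e-06, and -0.81 ± 0.10, 5.25e-06) and in dKO (-0.87 ± 0.11 and -0.57 ± 0.10), the opposite direction to Spry1. Spry4 was called lower in dKO ImCD8 than in dKO ImCD4 from 35 to 80 counts per group (-0.999 ± 0.351, 0.0302), and Dusp7 higher there (0.49 ± 0.09, 0.000397).

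In the Ras-Raf-MEK-ERK list, the MEK gene Map2k1 rose in dKO ImCD4 from 111 ± 16.3 to 181 ± 21.6 CPM (log2 0.71 ± 0.11, adjusted p = 0.000442). Ksr2, which encodes a scaffold of the cascade, fell there (-1.28 ± 0.27, 0.00455). Neither passed in ImCD8. The ERK gene Mapk3 did not pass in ImCD4 (-0.15 ± 0.20, 0.677) or in ImCD8 (-0.43 ± 0.20, 0.285).

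Of 9 Ras exchange factors and adaptors 1 rose in each lineage, Sos2 (0.58 ± 0.11 in ImCD4 and 0.50 ± 0.11 in ImCD8). Of 8 Ras GTPase-activating proteins, which switch Ras off, 3 fell in ImCD4: Nf1 (-0.74 ± 0.17), Rasal1 (-0.84 ± 0.21) and Dab2ip (-1.18 ± 0.35). In ImCD8 Nf1 fell (-0.72 ± 0.18) and Rasa4 rose (1.74 ± 0.29, from 1.70 to 5.65 CPM). On the JNK and p38 side 1 of 18 rose and 3 fell in ImCD4: Gadd45a (0.53 ± 0.16) against Map2k7 (-0.54 ± 0.08), Map2k6 (-0.65 ± 0.15) and Map3k1 (-0.20 ± 0.06). Map2k7, which encodes a kinase that activates JNK, was the only one of the 18 to pass in ImCD8 (-0.52 ± 0.09, adjusted p = 0.00140).

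Among 23 tested transcription factor genes induced by MAP kinases, 3 rose and 1 fell in ImCD4: Ier2 (0.62 ± 0.08), Jund (0.61 ± 0.11) and Myc (0.74 ± 0.17) against Fosl2 (-0.73 ± 0.18). In ImCD8 Ier2 rose (0.28 ± 0.08) and Etv5 (-0.86 ± 0.16) and Elk3 (-0.35 ± 0.10) fell. The immediate early genes Egr1, Nr4a1 and Egr2 did not pass in ImCD4, while Ier2, also an immediate early gene, did. Egr1 stood at 813 ± 29.0 and 954 ± 160 CPM (0.23 ± 0.14, adjusted p = 0.324), Nr4a1 at 497 ± 18.9 and 455 ± 53.1 CPM (-0.13 ± 0.21, 0.745) and Egr2 at 239 ± 7.82 and 203 ± 36.0 CPM (-0.24 ± 0.14, 0.313). Etv5 was the only list gene whose dKO effects differed between the lineages (-1.12 ± 0.20, adjusted p = 0.0144). That call was lost without control ImCD8 replicate 1 (0.0604).

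Of 11 phosphatases of T cell receptor signalling, Ubash3a (0.36 ± 0.07), Ubash3b (0.54 ± 0.16) and Ptpn22 (0.58 ± 0.14) rose and Ptprc (-0.21 ± 0.07) fell in ImCD4, and Ubash3b rose in ImCD8 (0.77 ± 0.16). Immediate early genes can also be induced by tissue dissociation. Of 9 tested genes of that kind, Ier2 alone passed in each lineage, and the list summed to 1848 to 1940 CPM in control ImCD4, 1925 to 2355 in dKO ImCD4, 1526 to 1643 in control ImCD8 and 1481 to 1797 in dKO ImCD8. Its part in the member results was not tested.

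Several of these list calls rest on single libraries. In ImCD4, leaving out 1 of the 6 ImCD4 libraries ended the calls of Dusp22, Rasal1, Dab2ip, Map2k6, Map3k1, Gadd45a, Fosl2, Myc, Ptpn22, Ptprc and Ubash3b, each for at least 2 choices of the library, with adjusted p up to 0.188. In ImCD8, Sos2 was lost without control replicate 1 (0.0582), and Nf1, Ier2 and Elk3 without control replicate 1 or 2 among others, up to 0.198. Etv5 (0.0503) and Ubash3b (up to 0.0705) were lost when only the ImCD8 libraries were fitted, Ubash3b also without the 4 libraries numbered 3. Without those 4, Dusp22, Gadd45a, Map3k1, Ubash3b and Ptprc also lost their calls in ImCD4, and Nf1 and Elk3 in ImCD8. Spry4 between the lineages in dKO was lost with DESeq2, without the 4 libraries numbered 3, and without dKO ImCD4 replicate 1 or 2 or dKO ImCD8 replicate 2 or 3 (adjusted p up to 0.123).

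**Figure D5:**
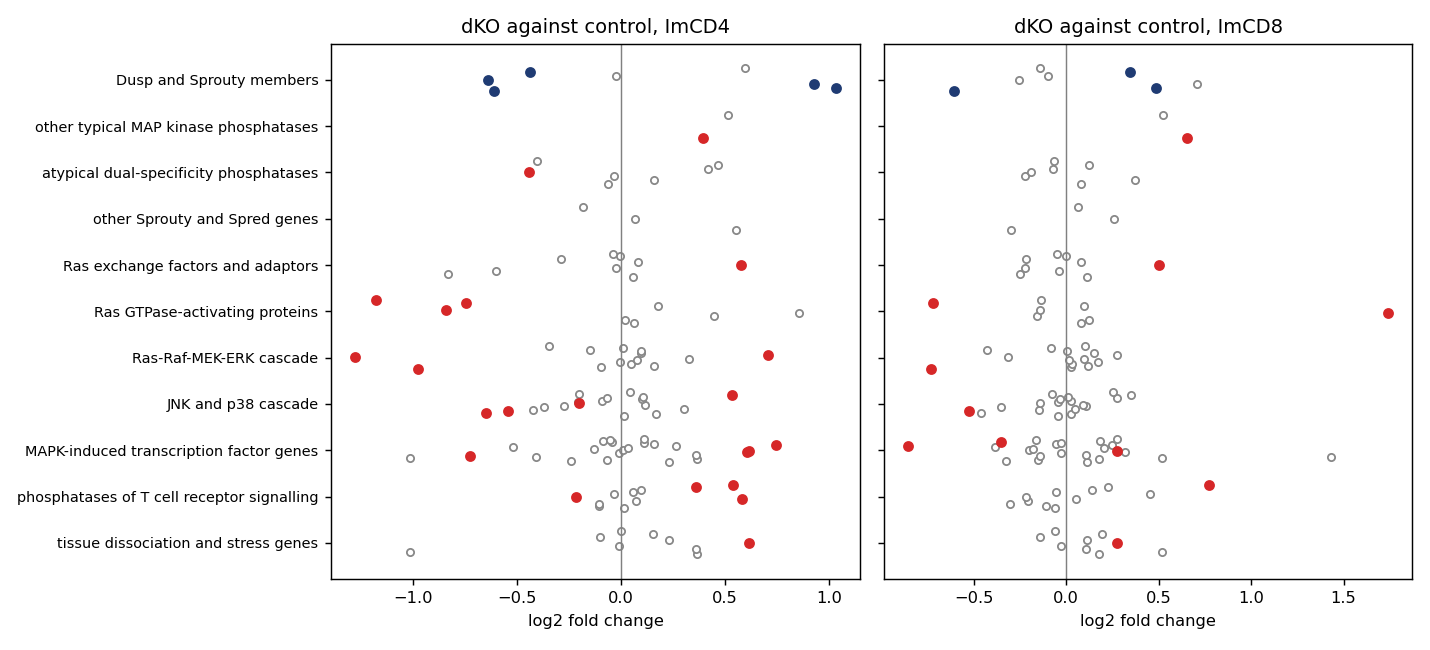
log2 fold change of dKO against control (x axis) in ImCD4 and ImCD8 for the members (top row) and the tested genes of each pathway list (points), with genes past an adjusted p of 0.05 filled. In ImCD4 Map2k1 lies at 0.71 and Ksr2 at -1.28.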

How the data were processed

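RNA was measured in 12 libraries of sorted thymocytes, prepared with a column kit for small samples and a SMARTer low-input kit, per the labels' protocols. Reads were trimmed, aligned and counted by the authors (tools named in the submitters' processing notes: cutadapt 1.18, STAR 2.6.1, HTSeq; build mm10). The deposited values are raw counts for each gene symbol, not normalized. No source used here gives the annotation or the strand setting.

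The 5 summary rows per library were left out of library sizes. They held 10.5% to 16.4% of tallied reads outside genes, 5.37% to 5.82% ambiguous and 3.87% to 5.39% with several alignments. Groups follow the titles. Replicate numbers are the order of the records. The labels do not say whether libraries of the same number belong together, and no pairing entered the main fit. Libraries of 1 group differed beyond counting noise (chi-square over its degrees of freedom, lowest pair 3.84), and all were counted as separate.

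Genes were kept by filterByExpr (minimum count 10, minimum total 15), which left 13383. All 12 libraries entered 1 edgeR 4.0.16 quasi-likelihood fit (R 4.3.3, TMM factors 0.946 to 1.04, robust, 4 group means, 8 residual degrees of freedom). Adjusted p-values are Benjamini-Hochberg over all genes tested, two-sided, with 0.05 as the threshold. They come from this test unless another is named. An exact permutation of 3 against 3 cannot go below p = 0.1. The fit was tested on simulated data. Levels are CPM on TMM-scaled library sizes, as mean ± SD (n = 3). Length is the union of GENCODE M21 exons. Alternatives were RLE or no scaling, DESeq2 1.42.0, limma 3.58.1 voom, other filters, each library left out, the libraries numbered 3 left out or given a term, and only the libraries compared. Named genes were all members, the targeted genes, the called members of the pathway lists (up to 4 per list and dKO comparison), and the nearest genes by pattern. Some list genes that did not pass were named as well. The members and lists were chosen with earlier results of these data known. Results of some pathway list genes are not reported here.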

Additional observations from a re-analysis of the deposited data

Results flagged for a closer look

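Dusp10 was set apart because the dKO effect differed between the lineages by a test of the difference itself: it was 0.78 log2 units higher in ImCD8 than in ImCD4 (SE 0.12, edgeR quasi-likelihood interaction, adjusted p = 0.00449), lower in 3 of 3 dKO libraries in ImCD4 and higher in 3 of 3 in ImCD8. Direction in ImCD8 rests on the sample titles, which the genotype labels contradict.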

How the results depend on the processing

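No paired analysis was possible because the labels give no replicate numbers. Over the 7 tested members and 5 comparisons, 684 of 728 alternative values kept their direction and side of the threshold, 17 lost a call, 5 gained one and 22 changed sign, all of the last for differences that had not passed. The members called in ImCD8 were 3, and 1 to 3 with a library left out. Without a filter on low counts the difference between lineages was called for 2 members, Dusp2 joining Dusp10. Dusp6 in ImCD4 became 0.0075 with voom, 0.098 without the 4 libraries numbered 3, and -0.14 to 0.058 with 1 library left out. Without those 4, Dusp6 and Spry1 in ImCD8 became 0.0061 and 0.0071. With 1 library left out Spry1 in ImCD8 ranged from -0.49 to 0.16, and the difference between lineages from -0.10 to 0.16 for Dusp1, -0.15 to 0.039 for Dusp6 and -0.41 to 0.13 for Dusp4. Dusp2 between the lineages in dKO became -0.019 with library size scaling alone and ranged from -0.082 to 0.23 with 1 library left out. The cause was not tested.

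Over all genes, calls in ImCD4 were 1797 and 1055 to 1953 with 1 library left out, and in ImCD8 822 and 473 to 883; without a filter ImCD8 had 1280. A term for the 4 libraries numbered 3 gave 2679 and 1420. For the difference, 58 genes became 140 with DESeq2, 233 without a filter, 106 without those 4, 200 with the term and 39 to 65 with 1 library left out. Counts of Spry1, Spry2 and Dusp4 were too few to show small differences.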
